A study of Dendrobium huoshanense with 6 samples.

Results

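In whole seedlings of the medicinal orchid Dendrobium huoshanense, 61 transcript features were read in every normal growth library and listed at exactly 0 in every cold library. A feature here is a cluster of assembled contigs whose IDs share a CL number, with their estimated reads summed, or a single unclustered contig whose ID begins with Unigene. The members were chosen on these same libraries: a sum of 0 in all 3 cold libraries, at least 10 estimated reads in each of the 3 normal growth libraries, and under 50 CPM (estimated reads scaled to a library total of 1000000) in the lowest of the normal growth libraries. They were 61 of 118758 features and held 67 of 181669 contigs. The levels in cold and in normal growth chose the members, so they are given as a description and carry no test.

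The cold group held 3 libraries and the normal growth group 3, all from poly(A)-selected RNA of whole seedlings with no genotype difference given in the labels, which call them biological repeats. The protocol text is shared by all samples, describes annual plants at 4 °C under 11 h of light per day, and names collection at 0 and 7 days without tying a day to a sample. The groups may therefore also differ in time and age, which cannot be told apart from the cold, and no temperature is stated for normal growth. The labels do not say how many seedlings a library held. Depth was 15284397 to 17255112 estimated reads in the cold and 17683567 to 18085164 in normal growth.

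Plants that meet low temperature without freezing change the transcripts of membranes, sugars, photosynthesis and growth over days, and many genes of growth and development are turned down. A transcriptome assembled without a genome gives contigs, which can be whole transcripts, fragments, alleles or splice forms. Where a read fits more than 1 contig, the counting model gives each a part of it, so a 0 can stand for a transcript that was not seen or for reads given to a similar contig. The deposited tables pair no contig with a gene name, and contig sequences were not used here. The members are therefore described by kind, length, level and neighbours in the numbering, and no role can be given to any of them. In whole seedlings, fewer cells of a type and less RNA per cell cannot be told apart.

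Silence in the cold was rare at this level of reads. Of the 22662 features that met the read minimum and the upper limit in normal growth, 0.269% were the members (exact 95% binomial interval 0.206% to 0.346%, counting error only). The upper limit of 50 CPM removed no silent feature, since the same 61 were found without it. The highest of their lowest normal growth levels was 11.8 CPM. The other way round, 384 of 25447 features that met the same minimum and limit in the cold were at 0 in all 3 normal growth libraries, a share of 1.51%. Both counts come from the same 6 libraries.

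The 2 members with the highest level in their lowest normal growth library were unclustered contigs. Unigene11105_All, of 1670 bases, was at 0 reads in cold replicates 1, 2 and 3, against 208.8, 314.4 and 211.6 reads in normal growth replicates 1, 2 and 3. Its normal growth level was 13.7 ± 3.18 CPM (SD, n = 3). Unigene26009_All, of 1995 bases, was at 0 in the 3 cold libraries, against 200.5, 222.6 and 190.95 reads in normal growth. Its level of 11.5 ± 0.780 CPM (SD, n = 3) was among the most even of all members. A count of 0 allows up to 3 reads, which is 0.174 to 0.196 CPM in 1 cold library and 0.0607 CPM over the cold group. Set against 3 reads over the group, the cold level of Unigene11105_All was at least 226-fold lower and that of Unigene26009_All at least 189-fold lower.

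The rest of the 10 most abundant members were all at 0 reads in the 3 cold libraries, and their normal growth reads are given here in the order of replicates 1, 2 and 3. The most abundant, an unclustered contig of 1328 bases, had 271.9, 149.6 and 545.3 reads, or 18.1 ± 11.5 CPM (SD, n = 3). The second, of 5589 bases, had 570.9, 90.4 and 259.03 reads, or 17.3 ± 13.8 CPM (SD, n = 3). Both were uneven, and a different replicate led in each. A short contig of 332 bases had 231.6, 138.2 and 290.3 reads. An unclustered contig of 2234 bases had 173.5, 195.9 and 192.0 reads, or 10.5 ± 0.589 CPM (SD, n = 3), the smallest relative spread of any member. One of 3015 bases had 387.8, 82.5 and 72.3 reads, with replicate 1 far above the others. The contig of 2966 bases had 76.9, 369.0 and 18.8 reads, the widest spread of all, at 19.2-fold between its highest and lowest CPM. One of 1925 bases had 86.0, 82.1 and 163.04 reads. The remaining one of the 10 was a cluster of 3 contigs with 166.6, 233.4 and 137.6 reads, or 10.03 ± 2.63 CPM (SD, n = 3). These 10 members held 59.0%, 40.1% and 55.4% of all member reads in normal growth replicates 1, 2 and 3.

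**Figure D1:**
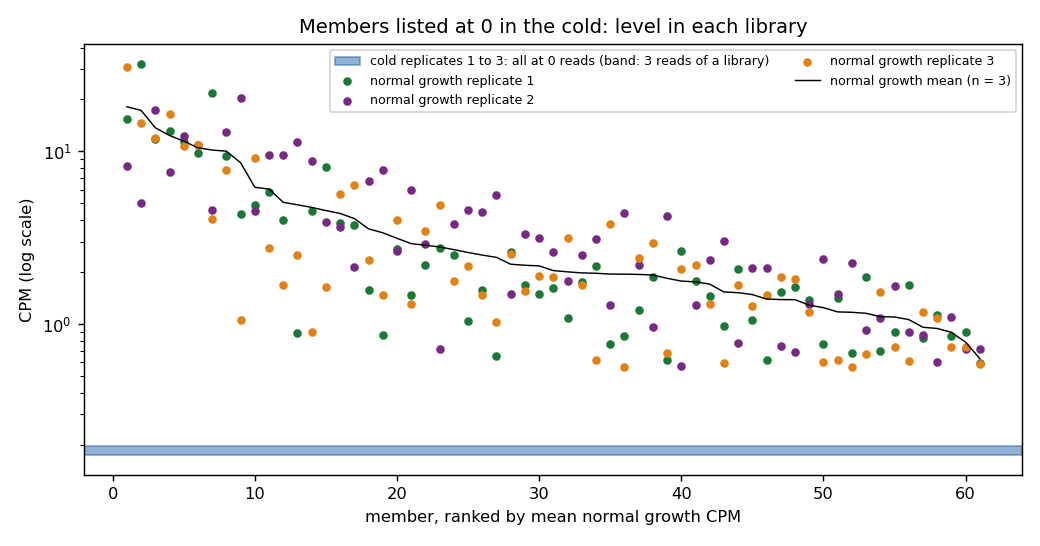
CPM (log scale) of each of the 61 members in each normal growth library (points) and their mean (line, n = 3), ranked by that mean. The blue band marks 3 reads of a cold library (0.174 to 0.196 CPM), and every member was at 0 reads in all 3 cold libraries. Means run from 0.631 to 18.1 CPM.

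Most members were weakly expressed in normal growth. Mean normal growth levels ran from 0.631 to 18.1 CPM with a median of 2.04 CPM, against a median of 7.08 CPM over the other eligible features. Among unclustered contigs alone the medians were 1.99 CPM for members and 4.18 CPM for the others. At 10 CPM or more there were 8 members, at 5 to 10 CPM 4, at 2 to 5 CPM 20, at 1 to 2 CPM 24 and under 1 CPM 5. All members together were at 0 in the cold and took 0.0228%, 0.0259% and 0.0212% of the reads in normal growth replicates 1, 2 and 3. Their mean share of normal growth reads was 0.0233% ± 0.00239 (SD, n = 3), so the silent features were a minute part of the RNA.

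The lower bounds on the fall followed these levels. Set against 3 reads over the cold group, the members were at least 10.4-fold to 298-fold lower in the cold, with a median of 33.7-fold. The bound was at least 16-fold for 56 members, at least 64-fold for 17 and at least 100-fold for 11. These bounds leave out the spread between libraries. In the fit over all 35987 tested features, 57 of the 61 members passed the filter on low counts, and all 57 were called lower in the cold (edgeR quasi-likelihood test, Benjamini-Hochberg adjusted p of 0.00166 to 0.0222). Over all tested features 15.5% were called lower and 34.0% in either direction. The rule used this contrast, so nothing is read from the members' calls.

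Per length, the order of the members changed. In FPKM, which scales reads to contig length, the highest level was that of the 332-base contig, at 63.6, 37.7 and 78.6 FPKM in normal growth replicates 1, 2 and 3 and 60.0 ± 20.7 FPKM on average (SD, n = 3). The 1328-base contig followed at 15.1 ± 9.54 FPKM and the cluster of 3 contigs at 14.6 ± 4.47 FPKM (SD, n = 3 each), which do not differ beyond their spread. An unclustered contig of 533 bases, outside the 10 members above, came next at 12.6 ± 10.04 FPKM (SD, n = 3), and Unigene11105_All followed at 8.89 ± 2.08 FPKM (SD, n = 3). The 5589-base contig, second in CPM, had only 3.17 ± 2.53 FPKM (SD, n = 3). Over all members the median level was 1.79 FPKM, against 4.44 FPKM over the other eligible features, where the FPKM of a cluster is summed over its contigs. Among unclustered contigs alone the medians were closer, at 1.73 FPKM for members and 2.49 FPKM for the others. In all, 52 members averaged at least 1 FPKM.

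The share of silent features differed with level. It was 0.521% of the 960 eligible features under a mean of 1 CPM in normal growth and 0.708% of the 3391 between 1 and 2 CPM. It was 0.397% of 5041 between 2 and 5 CPM, 0.104% of 3846 between 5 and 10 CPM and 0.0849% of 9424 at 10 CPM or more. Silence was thus listed mainly among weak features, where few reads separate 0 from a low level. The 8 members at 10 CPM or more are those in which a 0 is farthest from the counting floor. The members were also the end of a gradual scale: another 106 eligible features had above 0 and up to 3 reads over the cold group, 397 had above 3 and up to 10, and 1260 had above 10 and up to 30.

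**Figure D2:**
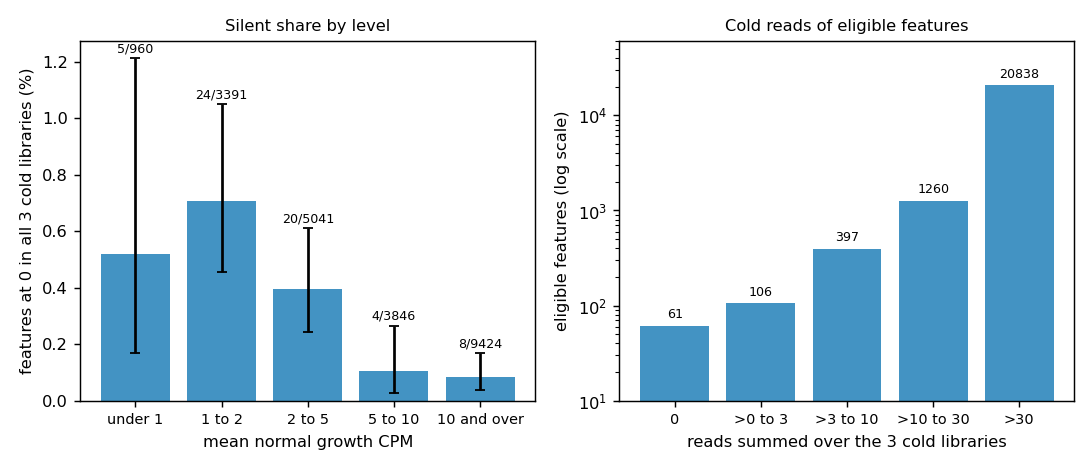
Left, share of eligible features at 0 in all 3 cold libraries by mean normal growth CPM, with exact 95% binomial intervals and counts of members over eligible features. Right, number of eligible features (log scale) by reads summed over the 3 cold libraries, from 61 at 0 to 20838 above 30.

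The thresholds cut through close cases. Just inside the minimum of 10 reads, 2 members had 10 reads in normal growth replicate 3, with 15 and 12 in replicate 1 and 80 and 41 in replicate 2, and the next had 47.1, 10.3 and 37.05 reads in replicates 1, 2 and 3. Just outside it, a feature at 0 in the cold had 24.7, 53.5 and 9.58 reads in those replicates, and the next had 9.58, 18.1 and 11.7 and 13.9, 9.42 and 20.2. In all, 910 features at 0 in the cold had reads in every normal growth library but fewer than 10 in at least 1. Of the members, 24 had fewer than 15 reads in their lowest normal growth library. Just outside the demand for 0, a feature with 0.02, 0 and 0 estimated reads in the cold had 155.2, 170.8 and 221.2 reads in normal growth. Its normal growth reads were near those of the members at about 10 CPM, and a fraction of 1 read kept it out. The next were a feature with 0.07 reads in cold replicate 3, against 50.1, 34.05 and 39.2 in normal growth, and one with 0.3 in cold replicate 2, against 26.3, 11.97 and 31.97.

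A cold library that was not used in the choice gave a separate measurement. When cold replicate 1 was left out of the rule, 160 features were chosen, and 38.1% of them were at 0 in cold replicate 1, where 1.69% of all eligible features were at 0. When cold replicate 2 was left out, 47.7% of 128 chosen features were at 0 in it, where 2.41% of eligible features were. When cold replicate 3 was left out, 43.9% of 139 were at 0 in it, where 2.21% were. In each case most of the chosen features had reads in the unused library. The 61 members are the features common to all of these choices.

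The unused libraries were also mostly low. The shares given here count the 61 features at 0, which lie below every normal growth library by the read minimum. Cold replicate 1 was below every normal growth library in 83.8% of the features chosen without it, against 42.3% of all eligible features. The shares were 90.6% against 46.0% for cold replicate 2 and 85.6% against 45.5% for cold replicate 3. Among chosen features that did have reads in the unused cold library, the median was 8.47, 5.94 and 6.95 reads in cold replicates 1, 2 and 3. A few were high, with up to 131.3, 450.9 and 303.1 reads. The chosen features were weaker in normal growth than eligible features, at medians of 2.07 to 2.39 CPM against 7.05 CPM, and how far this moved the shares at 0 was not tested.

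**Figure D3:**
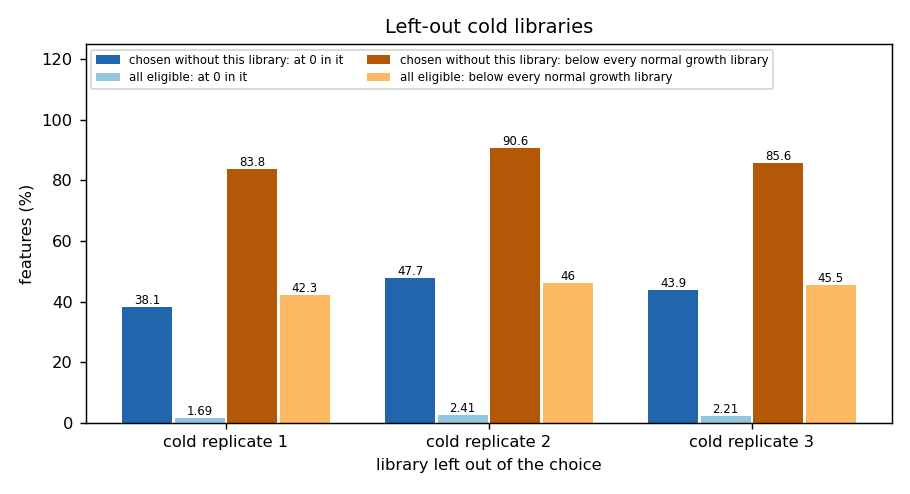
For each cold library, the percent of features chosen without it that were at 0 in it (38.1% to 47.7%) or below every normal growth library in it (83.8% to 90.6%), beside the same percents over all 22662 eligible features. The chosen features exceed the eligible ones in all 3 libraries.

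Leaving out a normal growth library asked how steadily silent features were expressed in normal growth. Of 92 features at 0 in the cold with at least 10 reads in normal growth replicates 2 and 3, 66.3% reached 10 reads in replicate 1, where 93.4% of all features with that minimum in the other libraries did. The same shares were 57.5% of 106 against 89.3% for replicate 2, and 64.2% of 95 against 95.03% for replicate 3. At 0 reads in the unused library were 9 features for replicate 1 (9.78%), 25 for replicate 2 (23.6%) and 15 for replicate 3 (15.8%). Over all features with that minimum in the other libraries these shares were 0.66%, 2.73% and 0.696%. Features silent in the cold were thus more often low or absent in a single normal growth library as well. The part of their lower level in this was not tested.

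By kind, members were almost all unclustered. There were 58 unclustered contigs among the 61 members, or 95.1% (exact 95% binomial interval 86.3% to 99.0%), against 59.4% of the other 22601 eligible features. Put as shares, 0.430% of 13488 eligible unclustered contigs and 0.0327% of 9174 eligible clusters were silent. A cluster sums several contigs and is 0 only where all of them are, and eligible clusters were more abundant, with a median of 15.98 CPM against 4.18 CPM for unclustered contigs that were not members. By level, 7 of 3528 unclustered contigs and 1 of 5896 clusters were silent at 10 CPM or more. Between 5 and 10 CPM it was 3 of 2454 and 1 of 1392, and between 2 and 5 CPM 19 of 3911 and 1 of 1130. Between 1 and 2 CPM it was 24 of 2797 and 0 of 594, and under 1 CPM 5 of 798 and 0 of 162. No test was made, and with 3 clusters the classes are thinly filled.

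The 3 clusters among the members held 9 contigs in all. The one of 3 contigs had the same leading contig, of 910 bases, with 62.3%, 64.2% and 71.0% of its reads in normal growth replicates 1, 2 and 3. The cluster of 4 contigs had 103, 173 and 49 reads in all, against 0 in each cold library, and its leading contig of 1111 bases took 62.6%, 61.0% and 56.4%. The cluster of 2 contigs had 80, 159 and 16 reads, of which a contig of 917 bases took 98.4%, 97.4% and 90.3%. In each the same contig led in all 3 normal growth libraries, although minor contigs varied and 2 contigs of the cluster of 4 had no read in replicate 2.

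Contigs taken one by one were silent far more often than clusters. At the contig level 290 contigs were at 0 in the cold with at least 10 reads in each normal growth library. Of these, 58 were the unclustered members and 5 lay in the clustered members. The remaining 227, or 78.3%, lay in 206 clusters that still had reads in the cold, and these clusters held a median of 12 contigs. The median log2 ratio of their pooled CPM, cold over normal growth, was -0.76, and 48 of the 206 were at least as high in the cold as in normal growth on average. A silent contig was therefore more often one of a cluster that was still read than part of a member. Most contigs lay in clusters to begin with: of 44523 contigs that met the minimum and the upper limit one by one, 13488 were unclustered. The silent share was 0.651% of these 44523 contigs and 0.430% of the unclustered ones, and whether clustered contigs were silent more often was not tested.

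Most members shared reads with other contigs. A count that is not whole shows that the counting model divided at least 1 read between contigs. Among the 58 unclustered members, 48 had a count more than 0.005 reads from whole in at least 1 normal growth library, a share of 82.8% (exact 95% binomial interval 70.6% to 91.4%). The share was 72.5% over 13430 other eligible unclustered contigs, which lies within that interval. Unigene11105_All and Unigene26009_All were both among the 48. Of the clusters, those of 4 and of 2 contigs had whole sums within rounding in all 3 normal growth libraries, and that of 3 contigs did not. For the members with divided reads, how much of the 0 in the cold came from reads given to another contig was not tested.

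In length the members were somewhat shorter than the features around them. The longest contig of a member had a median of 1390 bases, with quartiles of 917 and 2087 and a range of 332 to 5658. Over the other eligible features the median was 1838 bases, with quartiles of 1250 and 2721. Among unclustered contigs alone it was 1417 bases for members and 1735 for the others.

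The members varied widely between the normal growth libraries. The coefficient of variation (CV) of the CPM over the 3 libraries had a median of 45.7% over members, against 27.2% over the other eligible features and 34.2% over the unclustered ones among these. The ratio of highest to lowest CPM had a median of 2.70 and ran up to 19.2, with 20 members under 2-fold and 13 at 5-fold or more. By level, between 1 and 2 CPM the medians were 48.2% over members and 37.4% over all eligible features, and between 2 and 5 CPM 60.3% and 38.6%. They were 20.1% and 24.1% under 1 CPM, 67.7% and 31.7% between 5 and 10 CPM, and 30.9% and 18.0% at 10 CPM or more. The part of level and depth in the spread was not tested. Features are not replicates, so no test was made.

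Normal growth replicate 2 stood out within this variation. It had the highest CPM of the 3 libraries in 33 of the 61 members (54.1%), replicate 3 in 17 and replicate 1 in 11. Over the other eligible features replicate 2 led in 36.8%, replicate 3 in 35.2% and replicate 1 in 27.9%. Of the 13 members that differed 5-fold or more, 10 were highest in replicate 2, 2 in replicate 1 and 1 in replicate 3. Across the 61 members, log2 CPM in replicates 1 and 3 correlated at a Pearson r of 0.75, in replicates 1 and 2 at 0.50 and in replicates 2 and 3 at 0.40. The same values over all eligible features were 0.91, 0.88 and 0.85. These correlations are across features of the same libraries, span a wider range of levels in the eligible set, and carry no test.

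**Figure D4:**
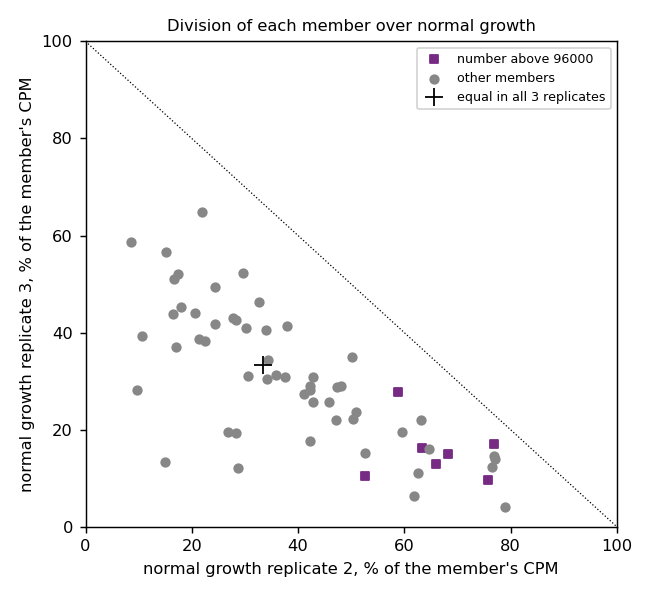
Percent of each member's summed normal growth CPM that fell in replicate 2 (x axis) and in replicate 3 (y axis), with replicate 1 as the rest and the cross at equal division. The 7 members with Unigene numbers above 96000 (squares) all lie at the side of replicate 2.

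The numbering of the unclustered contigs went along with the libraries in which they were read. Among the first 48000 Unigene numbers, each library had reads on most contigs of every band of 4000 numbers. From number 48001 on, median contig lengths per band were 251 to 404 bases, and in 12 of 14 bands 1 library had reads on at least 1.5 times as many contigs as any other. Cold libraries led in 9 of these bands and normal growth libraries in 3. In the last band, for example, 83.1% of contigs had reads in normal growth replicate 2 and 17.9% to 30.9% in the others. The sources used here do not say what set the numbering. The bands were chosen after seeing the data.

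Members were spread unevenly over these numbers. The first 48000 numbers held 46 members, or 0.373% of 12346 eligible contigs. The 9 bands led by a cold library held 0 members among 495 eligible contigs, which allows a share of up to 0.606%. That bound includes the 0.430% of all eligible unclustered contigs. It lies under the 1.05% (12 of 1142) of eligible contigs numbered 48001 on, a set that contains these bands. It also lies under the 1.71% (4 of 234) of the 3 bands led by a normal growth library. These counts are small, and the differences were not tested. The opposite pattern, silent in normal growth, was found there in 46 of 737 contigs eligible for it (6.24%). Over all numbers it was found in 367 of 15881 (2.31%). Over numbers from 48001 on, which contain these bands, it was found in 82 of 1340 (6.12%), a share near theirs. In the 3 bands led by a normal growth library it was found in 6 of 206 (2.91%). The last 2 bands, numbers 96001 to 102653, held 7 members among 199 eligible contigs, a share of 3.52%. All 7 were highest in normal growth replicate 2, by a median of 3.12-fold over the higher of the other replicates. Of the other 192 eligible contigs there, 83.3% were also highest in replicate 2, and their median ratio to the higher of the other replicates was 1.74, over a range of 0.339 to 14.02. Without these numbers, 26 of 54 members were highest in replicate 2, 17 in replicate 3 and 11 in replicate 1, so replicate 2 still led most often.

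**Figure D5:**
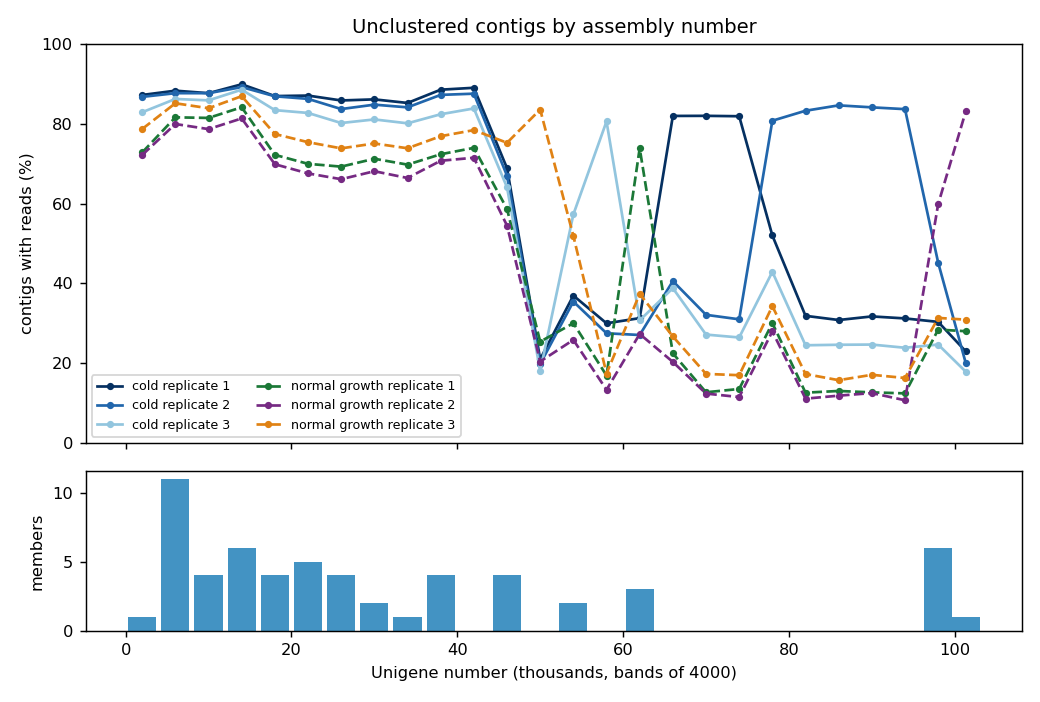
Top, percent of unclustered contigs with reads in each library, by bands of 4000 Unigene numbers (solid lines cold, dashed lines normal growth). Bottom, members per band, with 46 in the first 48000 numbers and 7 in the last 2 bands. Past 48000, 1 library stands at least 1.5 times above any other in 12 of 14 bands.

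Some members were neighbours in this numbering. In 2 pairs the numbers were 1 apart, and 4 pairs in all were at most 5 apart. The longest run of consecutive numbers that held a member, with every contig at 0 in the cold and with some reads in normal growth, had 7 contigs of 2004 to 3132 bases. It held 3 members, those of 2234, 3015 and 2928 bases. Summed, the 7 contigs were at 0 in each cold library, against 39.8, 21.3 and 17.6 CPM in normal growth replicates 1, 2 and 3. The member of 2928 bases had 142.9, 70.6 and 29.3 reads in those replicates, and the 4 contigs of the run that were not members had at most 28.5 reads in a library. On one side the run ended at a contig with 3.00 reads over the cold group, against 153.7 over normal growth, and on the other at a contig with 140.1 in the cold, against 213.9 in normal growth.

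How far the neighbours of members stood apart depended on the contigs they were set beside. Of 334 other contigs within 5 numbers of a member and with at least 10 reads over normal growth, 9 were at 0 in the cold (2.69%; exact 95% binomial interval 1.24% to 5.05%). Over contigs within 5 numbers of another eligible contig, 397 of 26649 were (1.49%), and over all unclustered contigs with that minimum, members left out, 886 of 31659 (2.80%). The median log2 ratio of pooled CPM, cold over normal growth with 0.5 reads added, was -0.27 near members, 0.0041 near other eligible contigs and -0.13 over all. At least 4-fold lower in the cold were 18.6% of the contigs near members, 14.3% near other eligible contigs and 17.3% of all. With members counted among the neighbours, 6 of 70 contigs next to a member were at 0 in the cold (8.57%), against 1.30% next to another eligible contig. Members are at 0 by the rule, and without them it was 2 of 66 (3.03%; exact 95% binomial interval 0.369% to 10.5%). With members counted, it was 4 of 69 at a distance of 2 numbers (5.80%) and 4 of 77 at 3 (5.19%). It was 3 of 69 at 4 (4.35%), 2 of 66 at 5 (3.03%) and 3 of 66 at 6 (4.55%). Further out it was 0 of 63 at 7 and 1 of 65 at 8 (1.54%). At 9 it was 6 of 66 (9.09%) and at 10 it was 3 of 74 (4.05%). Near other eligible contigs the shares at these distances lay between 1.09% and 1.38%. The share near members thus fell at each step from 1 to 5 numbers, and no steady fall was seen from 5 to 10. These counts are small, and the run of 7 contributes to them. Runs of 7 or more such contigs occurred 45 times among 5468 runs in the whole numbering. That count also covers the bands of short contigs led by 1 normal growth library. How common such a run is among long contigs, like those of the run with 3 members, was therefore not tested.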

How the data were processed

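Each of the 6 libraries has 1 table. The deposited expected counts are estimates that need not be whole. The deposited TPM and FPKM values adjust for contig length and depth, per the file headers. RSEM 1.2.8, Bowtie2 2.2.5 and DESeq2 appear, without a role, among the submitters' processing notes. The assembler and the ways of clustering and numbering are not stated there. Groups follow the treatment label.

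Expected counts were summed per CL number, an interpretation of the IDs, and divided by the library total for CPM. For the fit, sums were rounded and fitted in R 4.3.3 by edgeR 4.0.16: filterByExpr, TMM, robust quasi-likelihood F test of cold against normal growth, adjustment over all features tested. The scripts were tested on simulated data. Intervals and floors cover counting error only, as reads are not independent molecules.

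The members and the rules were chosen with earlier results of these data known. At most 2 IDs are printed, those of the members with the highest lowest normal growth CPM; the 10 with the highest mean are given in full. Alternatives covered the read minimum, the cold limit, contigs alone, rounding, TPM, scalings, filter, DESeq2 1.42.0, limma 3.58.1, a replicate block and leaving out each library. Contigs have no names here, so no gene lists were scored.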

Additional observations from a re-analysis of the deposited data

How the results depend on the processing

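The member count depended on its thresholds. It was 124 at a minimum of 5 reads, 29 at 20 reads, 100 with up to 1 read and 167 with up to 3 reads over the cold libraries, and 290 for contigs alone; all 61 members were in the sets of 124, 100 and 167. The silent share of eligible features under these settings was 0.448%, 0.158%, 0.441%, 0.737% and 0.651%, and 0.430% for unclustered contigs only. The members' share of normal growth reads was 0.0289%, 0.0169%, 0.0397%, 0.0535% and 0.141%, and 0.0261% with rounded counts, which gave 67 members. Leaving out 1 library can only add members, and it gave 92 to 160. They were 0.382% to 0.706% of eligible features and took 0.0287% to 0.0690% of reads. Among these choices the median CV was lowest without normal growth replicate 2, at 30.8%, and highest without cold replicate 1, at 51.7%. The first is a CV over 2 normal growth libraries and the second over 3, so they are not like measures. The unclustered share was 20.0% for contigs alone and 91.3% to 97.7% on leaving out 1 library. The median CV stayed within 1.5 times under every setting run. No upper limit left 61 members, silence read from TPM 62, and numbers up to 96000 alone 54 (the last, and unclustered contigs only, chosen after seeing the data).

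The fit over all features called 12245, and 6997 to 12212 on leaving out 1 library (57 to 61 members called). Those leave-out fits called 16.9% to 29.9% of all tested features, and 8.20% to 12.9% as lower in the cold. With the replicate block it called 6319, or 17.6% of all tested features with 8.61% lower, and 42 of 57 members. Deviations of same-numbered libraries correlated at -0.092, -0.0088 and -0.13, which gives no sign of pairing. The other scalings, no filter, DESeq2 and limma-voom stayed within 1.5 times, with all tested members called. Over all tested features these called 14.1% to 35.7%, and 5.99% to 16.7% as lower. The causes of these changes were not tested.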
